A study of Mus musculus with 12 samples.

Results

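The genes described here code for RNA-binding proteins that set how long cytokine mRNAs last. They are Zfp36 and its paralogs Zfp36l1 and Zfp36l2, Khsrp, Zc3h12a, Rc3h1, Elavl1, Tia1 and Tial1. The members were chosen by symbol from a list of 10 names, of which 1, Regnase, is a protein name of Zc3h12a and has no row of its own. That leaves 9 genes of the 38215 in the count table, and all 9 passed the filter on low counts. The libraries came from RAW264.7 cells, a mouse macrophage line whose labels give the strain as BALB/c. Every culture was nucleofected with an siRNA pool for 24 h, either a control pool or a pool against SF3a1, which codes for a subunit of the splicing factor SF3A of the U2 small nuclear ribonucleoprotein. Each siRNA was followed either by no stimulus or by 20 ng/ml lipopolysaccharide (LPS), the bacterial agonist of Toll-like receptor 4, for 4 h. There were 3 libraries in each of the 4 groups, called here unstimulated control, LPS-stimulated control, unstimulated SF3a1 siRNA and LPS-stimulated SF3a1 siRNA. All cells were of 1 line. The methods describe replicate siRNA treatments and stimulations but the labels do not say what the replicates of a group shared, so p-values measure the spread between these libraries.

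Many inflammatory mRNAs carry AU-rich elements or stem-loops in their 3′ untranslated regions (UTRs). Tristetraprolin, the product of Zfp36, and its paralogs bind AU-rich elements and bring the CCR4-NOT deadenylase, which shortens the poly(A) tail before decapping or exosome decay. Khsrp also promotes the decay of AU-rich mRNAs. Zc3h12a (Regnase-1) is an endonuclease that cuts stem-loop targets, and Rc3h1 (Roquin-1) binds such stem-loops and recruits deadenylases. Elavl1 (HuR) binds AU-rich mRNAs and stabilizes them, while Tia1 and Tial1 are known as translational repressors and splicing regulators. LPS induces both the cytokines and several of their own decay factors, a negative feedback.

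The AU-rich heptamer that tristetraprolin recognizes, written TATTTAT as DNA, was looked for on the sense strand of the annotated 3′ UTR of the transcript with the longest coding region (GENCODE, GRCm38). It was present in 7 of 9 members, against 27.5% of the 10903 tested genes with such a UTR. It was also in 22 of 33 inflammatory mRNAs listed as targets of these proteins (66.7%) and in 12 of 29 other RNA-binding regulators of unstable mRNAs (41.4%). Zfp36, Zfp36l1 and Zfp36l2 each had 3 copies, Elavl1 had 8, Rc3h1 had 2, Tia1 and Tial1 had 1 each, and Khsrp and Zc3h12a had none. UTR length differs between these sets, with a median of 1835 bases in the members, 657 in the targets, 2288 in the other regulators and 959 in all tested genes. The first copy in each Zfp36 paralog is shown beside that of Tnf, a classical target, with the heptamer in capitals, because Zfp36 is known to act on its own mRNA through such elements. All 4 are on the minus strand, and the sites are at chr7:28376966-28376994, chr12:80108422-80108450, chr17:84184914-84184942 and chr17:35199708-35199736 of GRCm38. A match of letters is a description and not a binding site.
Zfp36: agtgggcccttTATTTATgacgactttat
Zfp36l1: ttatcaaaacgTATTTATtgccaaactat
Zfp36l2: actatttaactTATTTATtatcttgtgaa
Tnf: cagcccccctcTATTTATatttgcactta

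The 2 members that rose with LPS, Zfp36 and Zc3h12a, are also shown by the 250 bases before their annotated start (RefSeq, GRCm38.p6, minus strand), at chr7:28379229-28379478 and chr4:125127882-125128131. In GENCODE the Zfp36 locus is chr7:28376784-28380253, and its annotated exons cover the stretch shown. The start of Zfp36 used here is therefore that of RefSeq only. Promoters were found for 8 of 9 members, among 32851 in all. On both strands, 10 motifs were searched, and the ones capitalized were picked after the matches had been seen. In Zfp36 the capitals mark a CArG box, the serum response element core, which lay 58 to 49 bases before the start and was present in 1.47% of all promoters. In Zc3h12a they mark 5 GC boxes (GGGCGG or its complement), a motif in 32.7% of all promoters. It also had 5 matches in Rc3h1, at most 2 in either of the 2 promoters of Tial1 and 1 each in Zfp36 and Khsrp. The κB consensus was in none of the 8 and in 3.9% of all promoters. A looser form of it, GGG and CC with any 5 bases between them, was in 45.8% of all promoters. It had 3 matches each in Zfp36, Zc3h12a and Rc3h1, at most 3 in either promoter of Tial1 and 1 in Khsrp. An AP-1 motif (TGANTCA, 6.75% of all promoters) was in Zfp36l1 and Rc3h1.
Zfp36: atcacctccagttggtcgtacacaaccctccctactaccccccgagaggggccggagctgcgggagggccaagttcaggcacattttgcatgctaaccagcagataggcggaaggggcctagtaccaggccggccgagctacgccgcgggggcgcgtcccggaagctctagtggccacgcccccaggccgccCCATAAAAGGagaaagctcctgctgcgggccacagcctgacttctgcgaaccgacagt
Zc3h12a: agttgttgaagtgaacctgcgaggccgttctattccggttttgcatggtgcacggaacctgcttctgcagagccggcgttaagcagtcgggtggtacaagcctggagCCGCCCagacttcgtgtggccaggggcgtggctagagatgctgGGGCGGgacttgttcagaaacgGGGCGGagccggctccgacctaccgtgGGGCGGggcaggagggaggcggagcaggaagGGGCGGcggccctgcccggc

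Libraries held between 12746019 and 41091887 counts in genes. Replicate 1 of each group was sequenced in 2 runs and had the most counts of its group. Sf3a1 itself had 173, 216 and 185 CPM (counts scaled to the size of the library) in the unstimulated control libraries and 27.1, 27.5 and 32.1 in the unstimulated SF3a1 siRNA libraries. With LPS it had 150, 194 and 157 CPM with the control siRNA and 30.3, 26.7 and 45.0 with the SF3a1 siRNA. The target was thus lower in every SF3a1 siRNA library than in any control library. Of 10 macrophage markers, 9 were well expressed (Mrc1 reached 0.963 CPM at most), and their sum was 9900 to 16500 CPM, with Lyz2 the most abundant. The markers of 8 other cell types summed to at most 2.74 CPM per type in any library, and that highest sum belonged to the dendritic cell pair Flt3 and Zbtb46. Markers of other cell types were therefore at or near 0 in all 12 libraries.

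In unstimulated control cells the members differed in level. Per kilobase of annotated exon, mean levels were 54.8 CPM for Khsrp, 32.9 for Zfp36l2, 16.6 for Tial1, 12.9 for Elavl1, 12.7 for Zfp36, 5.45 for Rc3h1, 4.71 for Zc3h12a, 2.08 for Zfp36l1 and 1.98 for Tia1. The annotation used for exon length is not the one the reads were counted on, so neighbours in this order with near values, such as Elavl1 and Zfp36, are not told apart. For Zfp36 the annotated exons cover the whole locus (3470 bases), and for Tia1 they come to 15750 bases. The places of these 2 genes in the order could therefore move further. After LPS in control cells, Zfp36 became the most abundant member per kilobase (115 CPM) and Zc3h12a the next (59.2 CPM).

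**Figure D1:**
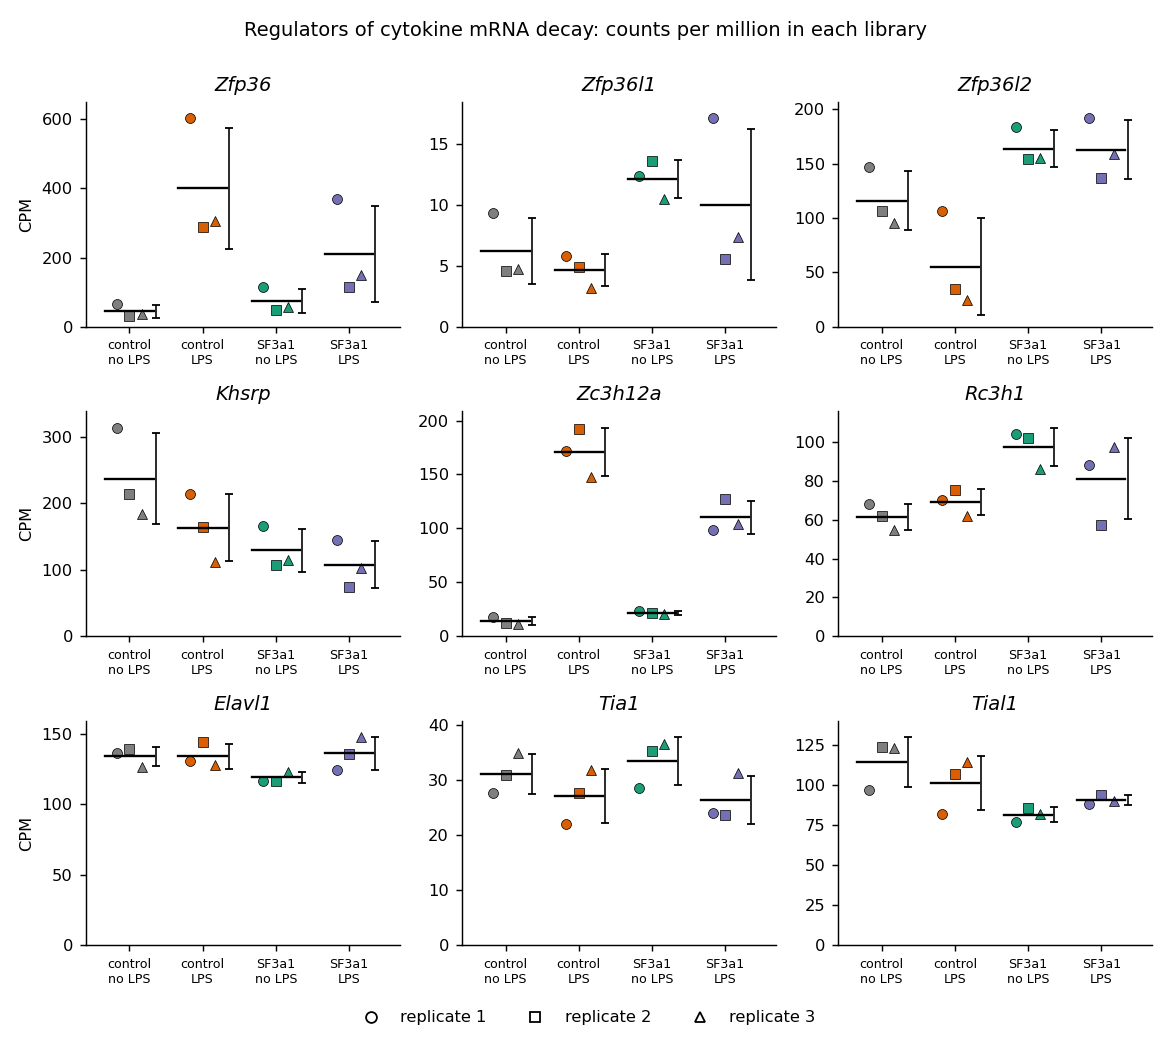
Counts scaled to library size (CPM, linear axis from 0) of the 9 decay regulators in each of the 12 libraries, by group; point shapes are replicate numbers, the horizontal line is the group mean and the bar beside it the SD (n = 3). Zc3h12a stood far higher with LPS under both siRNAs and Zfp36 under the control siRNA, while with SF3a1 siRNA the Zfp36 groups met at 113.5 CPM, and replicate 1 was the highest Zfp36 library of every group.

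LPS changed 3 of the 9 decay regulators in control cells. Zc3h12a and Zfp36 rose 12.5-fold and 9.08-fold and Zfp36l2 fell, at an adjusted p of 0.1 or less (edgeR quasi-likelihood test, Benjamini-Hochberg over all 14983 genes tested). In the same comparison 32.1% of all genes were called. In bulk libraries, fewer expressing cells and less RNA in each cell cannot be told apart. SF3a1 siRNA without LPS called 4 members, with Zc3h12a and Rc3h1 higher and Khsrp and Tial1 lower, against 33.8% of all genes. SF3a1 siRNA with LPS called 3, with Zfp36l1 and Zfp36l2 higher and Zc3h12a lower, against 38.8%. LPS in SF3a1 siRNA cells called 2, Zfp36 and Zc3h12a, both higher, against 10.7%. The difference between the SF3a1 siRNA effects with and without LPS was called for 1 member, Zc3h12a, against 3.47%. The share of members called was near the background in the first 3 comparisons, so the counts alone set these genes apart from no others. Comparisons that share a group are not independent of each other. With the replicate number as a block, 5 members were called for SF3a1 siRNA with LPS, where 50.9% of all genes were, and 3 for the difference of effects, against 11.7%. The block also added Zfp36 and Zfp36l1 for SF3a1 siRNA without LPS, where it called 47.1% of all genes. It added Khsrp for LPS in control cells (43.9% of all genes) and Tia1 for LPS in SF3a1 siRNA cells (20.8%).

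**Figure D2:**
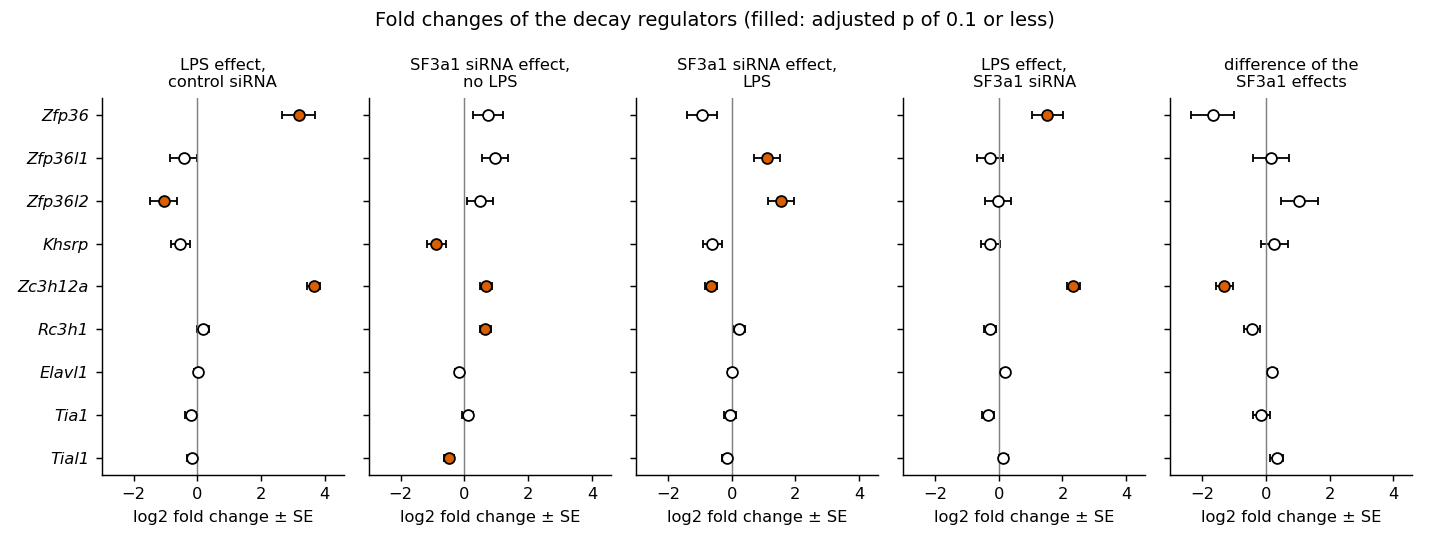
Log2 fold change (horizontal axis) with its standard error for each of the 9 members in 5 comparisons from the edgeR fit; filled points have an adjusted p of 0.1 or less. Zc3h12a is the member called in all 5 panels, at 3.65, 0.67, −0.64, 2.34 and −1.31, and Elavl1 and Tia1 are called in none.

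Zfp36 had 65.6, 30.7 and 35.6 CPM in unstimulated control cells (replicates 1 to 3) and 603, 289 and 307 CPM after LPS. Every stimulated library was above every unstimulated one, a log2 fold change of 3.18 ± 0.51 (SE; adjusted p = 0.000516) or 9.08-fold. With SF3a1 siRNA it had 113.5, 48.5 and 57.7 CPM without LPS and 369, 113.5 and 148 CPM with it. The LPS effect in those cells was 1.52 ± 0.48 on the log2 scale (2.87-fold, adjusted p = 0.0823). Here the groups met, since the highest unstimulated and the lowest stimulated library were both at 113.5 CPM. That call was lost without any 1 of 5 libraries, namely replicates 2 and 3 of either unstimulated group and replicate 1 of the LPS-stimulated SF3a1 siRNA group, with adjusted p from 0.105 to 0.322. Without the last of these the log2 value was 0.83. It was also lost in the fit of only the groups compared (1.51, adjusted p = 0.125) and, at the threshold, by limma-voom (1.42).

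The SF3a1 siRNA effect on Zfp36 pointed up without LPS and down with it, and the calls depended on the fit. Without LPS the log2 values within same-numbered pairs were 0.79, 0.66 and 0.69, and with LPS they were −0.71, −1.35 and −1.05. Libraries of the compared groups overlapped, since replicate 1 was high in every group. Without the block the 2 effects were 0.73 ± 0.48 (adjusted p = 0.294) and −0.93 ± 0.48 (adjusted p = 0.163), and neither passed. With the replicate number as a block they were 0.71 (adjusted p = 0.000755) and −1.03 (adjusted p = 3.85e-05), and both also passed without a filter on low counts (adjusted p = 0.0169 and 0.000748). The difference between the effects was −1.66 ± 0.67 (adjusted p = 0.29) without the block and −1.74 (adjusted p = 0.000209) with it, and it passed without a filter (−1.63, adjusted p = 0.000107). In a fit of only replicates 2 and 3, added after seeing the data, all 3 values passed, at 0.68, −1.19 and −1.86 (adjusted p = 0.00944, 0.000235 and 0.00191). Without replicate 1 of the LPS-stimulated SF3a1 siRNA group, the effect with LPS was −1.61 (adjusted p = 0.021) and the difference −2.35 (adjusted p = 0.0722).

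**Figure D3:**
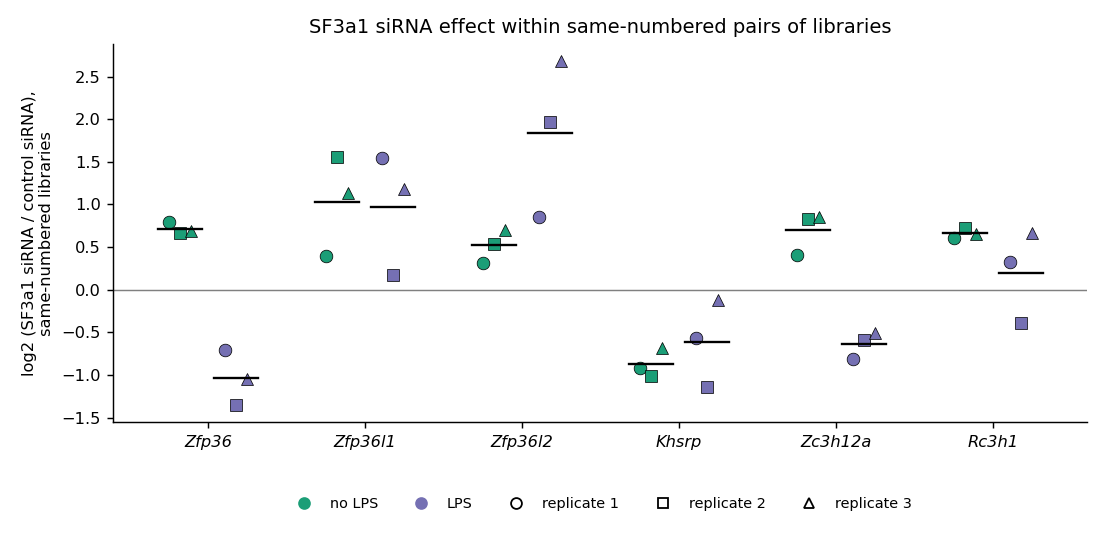
Log2 ratio of SF3a1 siRNA to control siRNA within same-numbered libraries (vertical axis) for 6 members, without LPS (green) and with LPS (purple); point shapes are replicate numbers and lines the mean of the 3 pairs. All 3 pairs of Zfp36 and of Zc3h12a lie above 0 without LPS and below 0 with it.

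Zfp36l2, a paralog of Zfp36, moved in the other direction. It had 147, 106 and 95.4 CPM in unstimulated control cells and 106, 34.8 and 24.7 CPM after LPS, a log2 fold change of −1.06 ± 0.41 (adjusted p = 0.0765). All 3 pairs fell, at −0.47, −1.61 and −1.94 on the log2 scale, and the fall was smallest in replicate 1. Replicate 1 of the stimulated group was as high as the middle unstimulated library. The call was lost without replicate 1 or 2 of the unstimulated control or replicate 2 or 3 of the stimulated control (adjusted p from 0.119 to 0.23) and in the fit of only the groups compared (−1.01, adjusted p = 0.197). With SF3a1 siRNA the libraries had 184, 155 and 155 CPM without LPS and 192, 137.1 and 159 CPM with it, and the LPS effect there was −0.02 ± 0.40 (adjusted p = 0.993).

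In LPS-stimulated cells, Zfp36l2 was therefore higher with SF3a1 siRNA in every library, by 1.55 ± 0.41 on the log2 scale (2.93-fold, adjusted p = 0.0131). The log2 values within same-numbered pairs were 0.85, 1.97 and 2.68, so the size of the effect depended on replicate 1. Without LPS the 3 SF3a1 siRNA libraries were also above the 3 controls, at 0.50 ± 0.41, which did not pass (adjusted p = 0.411) but did without replicate 1 of the LPS-stimulated control (0.50, adjusted p = 0.074), in the fit of only the groups compared (0.52, adjusted p = 0.05) and with only replicates 2 and 3 (0.62, adjusted p = 0.0151). The difference between the effects was 1.05 ± 0.57 (adjusted p = 0.501). It passed with the block (1.20, adjusted p = 0.0834), without a filter (1.06, adjusted p = 0.0284), with only replicates 2 and 3 (1.70, adjusted p = 0.00345) and without replicate 1 of the LPS-stimulated control (1.95, adjusted p = 0.00698).

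Zfp36l1, the other paralog, was the least abundant of the family. It had 9.35, 4.56 and 4.73 CPM in unstimulated control cells and 5.76, 4.93 and 3.2 CPM after LPS, which did not differ beyond the spread (−0.43 ± 0.41, adjusted p = 0.524). With SF3a1 siRNA it had 12.4, 13.6 and 10.5 CPM without LPS and 17.1, 5.56 and 7.36 CPM with it. The 3 unstimulated SF3a1 siRNA libraries were above all 3 controls, at 0.96 ± 0.41 on the log2 scale, just outside the threshold (adjusted p = 0.103). It passed in every other fit of all 12 libraries, at 0.93 to 1.05 with the RLE and upper quartile factors, both other filters, DESeq2, limma-voom and the block (adjusted p from 0.00763 to 0.099), and in the fit of only the groups compared (0.98, adjusted p = 0.0375). It also passed with only replicates 2 and 3 (1.38, adjusted p = 0.00183) and without replicate 1 of either control group or without replicate 1 or 2 of the LPS-stimulated SF3a1 siRNA group (adjusted p from 0.0264 to 0.0962). With LPS, Zfp36l1 rose by 1.11 ± 0.41 (2.16-fold, adjusted p = 0.0585), although the groups overlapped. That call rested on single libraries. It was lost without replicate 2 or 3 of the LPS-stimulated control (adjusted p = 0.113 and 0.177) and without replicate 1 of the LPS-stimulated SF3a1 siRNA group (0.48, adjusted p = 0.361). With only replicates 2 and 3, LPS lowered it in SF3a1 siRNA cells (−0.90, adjusted p = 0.0439).

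Zc3h12a, the endonuclease Regnase-1, was the member with the largest range of group means, 3.67 on the log2 CPM scale. It had 17.7, 11.8 and 11.2 CPM in unstimulated control cells and 172, 192 and 148 CPM after LPS, a log2 fold change of 3.65 ± 0.21 (12.5-fold, adjusted p = 8.51e-08). With SF3a1 siRNA the libraries had 23.6, 21.2 and 20.2 CPM without LPS and 98.0, 127 and 104 CPM with it. LPS still raised it there, by 2.34 ± 0.20 (5.06-fold, adjusted p = 8.46e-06).

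The SF3a1 siRNA effect on Zc3h12a changed sign with the stimulus, and no groups overlapped. Without LPS it was higher with SF3a1 siRNA by 0.67 ± 0.19 (1.59-fold, adjusted p = 0.0204), with pairs of 0.41, 0.83 and 0.85. With LPS it was lower by 0.64 ± 0.19 on the log2 scale (1.55-fold, adjusted p = 0.0202), with pairs of −0.81, −0.59 and −0.51. The difference between the effects was −1.31 ± 0.27 (adjusted p = 0.0273). These calls held in every alternative fit run, with and without the replicate block and without any single library.

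Rc3h1, the stem-loop binding Roquin-1, rose with SF3a1 siRNA in unstimulated cells. It had 68.3, 61.8 and 54.8 CPM in the controls and 104, 102 and 86.1 CPM with SF3a1 siRNA, with no overlap (0.66 ± 0.19, 1.58-fold, adjusted p = 0.0194). With LPS it had 70.0, 75.4 and 61.9 CPM in control cells and 88.2, 57.5 and 97.8 CPM with SF3a1 siRNA, where replicate 2 was below all controls (0.23 ± 0.19, adjusted p = 0.388). Without that library the value was 0.43 (adjusted p = 0.0544). The LPS effect passed with neither siRNA, at 0.17 ± 0.19 (adjusted p = 0.597) with the control siRNA and −0.26 ± 0.19 (adjusted p = 0.523) with SF3a1 siRNA.

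Khsrp, a decay-promoting protein that also binds single-stranded DNA and pre-mRNA, was lower with SF3a1 siRNA. It had 313, 214 and 183 CPM in unstimulated control cells and 166, 106 and 115 CPM with SF3a1 siRNA, each of these below every control (−0.88 ± 0.30, 1.83-fold lower, adjusted p = 0.0467). This call was lost without replicate 1 of the unstimulated control (−0.52, adjusted p = 0.245) or without replicate 2 or 3 of the SF3a1 siRNA group (adjusted p = 0.163 and 0.145). After LPS it had 213, 164 and 112 CPM in control cells and 145, 74.2 and 103 CPM with SF3a1 siRNA, and the groups overlapped. The SF3a1 siRNA effect with LPS was −0.60 ± 0.30 (adjusted p = 0.148) and the LPS effect in control cells −0.54 ± 0.30 (adjusted p = 0.226). Both passed with the block, at −0.60 (adjusted p = 0.00684) and −0.54 (adjusted p = 0.0144), without a filter (adjusted p = 0.0269 and 0.0457) and with only replicates 2 and 3 (adjusted p = 0.0301 and 0.0772). The first also passed without replicate 3 of the LPS-stimulated control or replicate 1 of the LPS-stimulated SF3a1 siRNA group (adjusted p = 0.0713 and 0.0581), and the second without replicate 1 of the LPS-stimulated control (adjusted p = 0.0993).

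Elavl1, the stabilizing HuR, had the smallest range of group means of the 9, 0.19 on the log2 scale. It lay between 116 and 147 CPM in all 12 libraries. Its log2 changes ran from −0.17 ± 0.12 to 0.20 ± 0.12, and none passed (adjusted p from 0.314 to 0.982). Its locus overlaps Ccl25 on the other strand, which had 343 counts over the 12 libraries, and whether counting used strand was not stated.

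The translational repressors Tia1 and Tial1 were counted at 21.9 to 36.5 and 76.6 to 124 CPM. Tia1 passed in no comparison; with the block its LPS effect in SF3a1 siRNA cells was −0.35 (adjusted p = 0.0776). Tial1 fell with SF3a1 siRNA in unstimulated cells, from 96.5, 124 and 123 CPM to 76.6, 85.8 and 81.9, with no overlap (−0.49 ± 0.15, 1.40-fold lower, adjusted p = 0.0301). The call was lost without replicate 2 or 3 of the unstimulated control (adjusted p = 0.189 and 0.192). With LPS the libraries had 81.5, 107 and 114 CPM in control cells and 87.7, 93.7 and 90.1 CPM with SF3a1 siRNA, and the groups overlapped (−0.15 ± 0.15, adjusted p = 0.492).

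The genes whose log2 CPM followed the 3 most variable members most closely over the 12 libraries were named by Pearson's r among 9304 genes, as a description. For Zc3h12a they were Socs3 (r = 0.994), a suppressor of cytokine signalling, Acod1 (r = 0.994), the itaconate enzyme, and Plaur (r = 0.99), the urokinase receptor. Socs3 had group means of 18.3, 920, 30.1 and 452 CPM, in the order unstimulated control, LPS-stimulated control, unstimulated and LPS-stimulated SF3a1 siRNA. For Zfp36 they were Tnfrsf1a (r = 0.982), a receptor for TNF, Usb1 (r = 0.978) and Rgl1 (r = 0.976). For Zfp36l2 they were Klhl21 (r = 0.979), Klf9 (r = 0.978) and Mgat4b (r = 0.975). All points share 4 groups and the same libraries, so these values largely describe the group pattern.

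The mRNAs that these proteins are known to control formed a list of 36 cytokines, chemokines and other inflammatory or growth genes, of which 33 were tested. LPS in control cells raised 27 and lowered 1, Bcl2, with a median log2 change of 5.08 against −0.02 over all genes, of which 13.8% rose. SF3a1 siRNA without LPS raised 18 and lowered 1 (Icos), with a median of 1.03 against −0.02. Of all genes, 13.7% rose and 20.1% fell in that comparison, so 40.6% of the called genes were higher (47.2% with RLE factors, 47.7% with upper quartile factors and 51.4% without replicate 1 of the unstimulated control). SF3a1 siRNA with LPS raised 6 and lowered 15, with a median of −0.62 against −0.04, while 18.4% of all genes rose and 20.4% fell. The difference between the effects was called for 13 of the 33, all negative, while 1.94% of all genes were called negative. Some of these had unstimulated levels near the floor. Cxcl2, Lif and Il1b had means of 0.575, 0.273 and 0.168 CPM with the control siRNA and 3.45, 3.75 and 0.484 CPM with SF3a1 siRNA. Ccl4, also called, had 12.4 and 42.2 CPM. In SF3a1 siRNA cells LPS raised 26 and lowered 1, with a median of 2.66, while 6.6% of all genes rose.

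Tnf, the classical tristetraprolin target, had 41.0, 35.5 and 29.8 CPM in unstimulated control cells and 98.5, 63.7 and 76.4 CPM with SF3a1 siRNA, where every library was above every control (1.17 ± 0.42, adjusted p = 0.0561). After LPS it had 671, 1870 and 1800 CPM in control cells and 424, 1390 and 898 CPM with SF3a1 siRNA (−0.68 ± 0.41, adjusted p = 0.239). Each of the 3 same-numbered pairs was lower with SF3a1 siRNA there, and the effect did not pass with the block either (−0.70, adjusted p = 0.145). The difference between the effects on Tnf was −1.85 (adjusted p = 0.146) and passed with the block (−1.88, adjusted p = 0.0475). Nfkbiz, a target of both Regnase-1 and Roquin, had 7.11, 7.64 and 5.83 CPM in unstimulated control cells and 15.9, 17.5 and 15.7 CPM with SF3a1 siRNA (1.25 ± 0.18, adjusted p = 0.000306). With LPS it had 216, 280 and 252 CPM and 47.5, 66.4 and 68.2 CPM, a fall of 2.04 ± 0.17 (adjusted p = 1.26e-05). Ptgs2, the inducible cyclooxygenase, was 26.9, 35.8 and 26.7 CPM in unstimulated control cells and 318, 216 and 275 CPM with SF3a1 siRNA (3.18 ± 0.20, adjusted p = 4.55e-06), and did not pass with LPS (0.28 ± 0.18, adjusted p = 0.269). Cxcl10, a chemokine, fell with SF3a1 siRNA from 1170, 2180 and 2350 CPM to 56.7, 220 and 196 CPM after LPS (−3.60 ± 0.51, adjusted p = 0.000254). Il1a, Il1b, Csf3 and Cxcl2 were at or below 0.681 CPM in unstimulated control cells and at 124 CPM or more in every LPS-stimulated control library. Vegfa, a growth factor for blood vessels, rose with SF3a1 siRNA in LPS-stimulated cells, from 40.5, 68.4 and 55.5 CPM to 92.8, 324 and 258 CPM (2.04 ± 0.49, adjusted p = 0.00765).

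**Figure D4:**
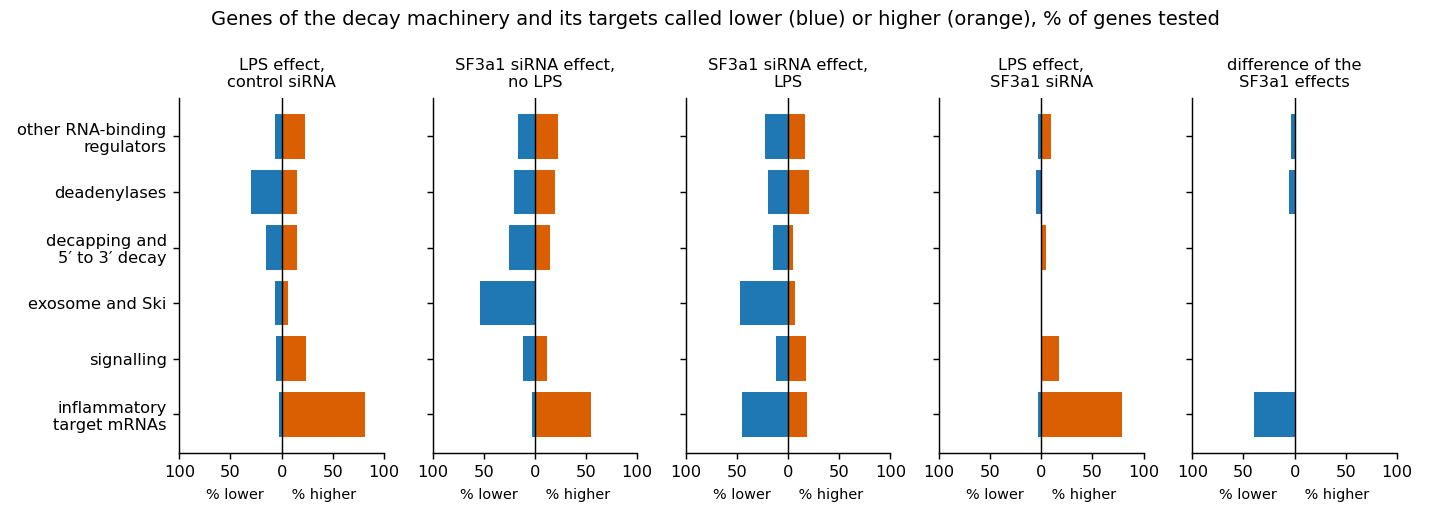
Share of the tested genes of 6 lists (rows) called lower (blue, to the left) or higher (orange, to the right) at an adjusted p of 0.1 or less in 5 comparisons. The inflammatory target mRNAs are mostly higher with LPS, and the exosome list has 8 of 15 genes lower with SF3a1 siRNA without LPS.

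The exosome and Ski complex degrade RNA from the 3′ end, and 15 of 16 listed genes were in the table. With SF3a1 siRNA without LPS 8 fell, none rose and 7 did not pass, with a median of −0.73 against −0.02 over all genes, of which 20.1% fell. With LPS 7 fell, 1, Dis3l, rose and 7 did not pass, with a median of −0.31 against −0.04, while 20.4% of all genes fell. Exosc5, a core subunit, had 71.5, 83.6 and 83.7 CPM in unstimulated control cells and 29.2, 27.9 and 29.2 CPM with SF3a1 siRNA (−1.47 ± 0.14, adjusted p = 3.64e-05). With LPS it had 60.7, 77.3 and 76.0 CPM and 25.9, 28.7 and 24.7 CPM (−1.43 ± 0.14, adjusted p = 2.91e-05). Exosc1, Exosc8 and Wdr61 also fell under both conditions, and without LPS Exosc1 and Wdr61 fell by 1.38 ± 0.13 and 1.27 ± 0.19 on the log2 scale (adjusted p = 3.64e-05 and 0.000373). LPS in control cells called 2 of the 15 genes, or 13.3% against 32.1% (5 with the block, against 43.9%), Dis3l lower and Ttc37 higher.

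The deadenylases and their adaptors moved both ways. LPS in control cells raised 3 of 20 and lowered 6, which is 45.0% called against 32.1% of all genes. The antiproliferative adaptors Btg2 and Btg1 rose by 1.42 ± 0.23 and 1.31 ± 0.19 (adjusted p = 0.000511 and 0.000228), and Tob1, of the same family, fell by 1.22 ± 0.30 (adjusted p = 0.00947). SF3a1 siRNA raised 4 and lowered 4 both without LPS and with it, which is 40.0% called against 33.8% and 38.8% of all genes. With the block 13 were called without LPS, where 47.1% of all genes were. Tob1 had 14.4, 7.82 and 9.54 CPM in unstimulated control cells and 31.5, 45.8 and 39.9 CPM with SF3a1 siRNA (1.87 ± 0.30, adjusted p = 0.000683). Parn, a poly(A)-specific ribonuclease, fell from 38.0, 37.5 and 38.8 CPM to 18.8, 13.6 and 17.4 CPM (−1.20 ± 0.17, adjusted p = 0.000345).

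Of 20 decapping and 5′ to 3′ decay genes, LPS in control cells raised 3 and lowered 3, or 6 of 20 called against 32.1% of all genes. Xrn1, the cytoplasmic exonuclease, rose by 1.17 ± 0.25 (adjusted p = 0.0038) and Dcp2, the decapping enzyme, by 1.01 ± 0.18 (adjusted p = 0.00102). SF3a1 siRNA raised 3 and lowered 5 without LPS (40.0% against 33.8%) and raised 1 and lowered 3 with it (20.0% against 38.8%, and 3 raised and 3 lowered with the block, which called 50.9% of all genes). With LPS, Xrn1 fell from 43.3, 52.1 and 45.8 CPM to 13.7, 7.25 and 17.3 CPM (−1.88 ± 0.26, adjusted p = 0.000213). Lsm2, a subunit of the Lsm ring that serves both decapping and splicing, fell from 69.8, 125 and 119 CPM to 17.1, 18.9 and 22.8 CPM without LPS (−2.42 ± 0.32, adjusted p = 0.000212).

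Of 17 genes that signal to the decay factors, LPS in control cells raised 4 and lowered 1, or 29.4% called against 32.1% of all genes (9 called with the block, against 43.9%). Malt1, the protease that cleaves Regnase-1, rose from 36.1, 37.4 and 40.1 CPM to 143, 175 and 280 CPM (2.40 ± 0.30, adjusted p = 6.29e-05). Mapkapk2, the kinase that phosphorylates tristetraprolin, rose from 731, 602 and 625 CPM to 1850, 1920 and 2150 CPM (log2 1.6 ± 0.14, adjusted p = 3.56e-06). Neither passed for the SF3a1 siRNA effect with LPS, at −0.08 ± 0.28 (adjusted p = 0.86) and −0.07 ± 0.14 (adjusted p = 0.766). Ikbkb, the kinase that marks Regnase-1 for degradation, fell with SF3a1 siRNA by 0.67 ± 0.14 without LPS (adjusted p = 0.00344) and by 0.99 ± 0.14 with it (adjusted p = 0.000246). SF3a1 siRNA called 4 of the 17 without LPS and 5 with it, or 23.5% and 29.4% against 33.8% and 38.8% of all genes. With the block 9 and 8 were called, against 47.1% and 50.9% of all genes.

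Of 31 tested genes for other RNA-binding regulators of unstable mRNAs, from a list of 35, LPS in control cells raised 7 and lowered 2, or 29.0% called against 32.1% of all genes. Zc3h12c, a relative of Zc3h12a, rose by 1.73 ± 0.26 (adjusted p = 0.000278), and N4bp1, an RNase with a related nuclease domain, by 1.16 ± 0.16 (adjusted p = 0.000187). SF3a1 siRNA raised 7 and lowered 5 without LPS and raised 5 and lowered 7 with it, in both cases 38.7% called, against 33.8% and 38.8% of all genes. With the block it raised 8 and lowered 9 without LPS and raised 9 and lowered 9 with it, where 47.1% and 50.9% of all genes were called. Caprin1, a stress granule protein, fell from 525, 549 and 499 CPM to 271, 234 and 240 CPM (−1.08 ± 0.14, adjusted p = 0.00021), and by the same log2 value with LPS. Tent5a, a poly(A) polymerase, had 52.5, 49.6 and 48.0 CPM in LPS-stimulated control cells and 12.8, 15.4 and 20.3 CPM with SF3a1 siRNA (−1.63 ± 0.20, adjusted p = 0.000114).

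Exon bins, the non-overlapping pieces into which a gene's annotated exons are cut, were counted in 11 libraries, since replicate 3 of the LPS-stimulated control was not analysed here at this level. Of the members' bins 134 were tested. None passed in any comparison (edgeR diffSpliceDGE, adjusted p of 0.1 or less), where 0.0801% of all bins were called for LPS in control cells, 0.626% for SF3a1 siRNA without LPS, 0.492% for SF3a1 siRNA with LPS and 0.0254% for LPS in SF3a1 siRNA cells. In that order, 6, 3, 6 and 1 member bins had an unadjusted p under 0.05, which is 4.48, 2.24, 4.48 and 0.746% of them, against 1.97, 3.39, 3.99 and 1.29% of all bins. By limma-voom with diffSplice 1 bin passed in each SF3a1 siRNA comparison, Tia1 bin 38 without LPS (adjusted p = 0.065) and Rc3h1 bin 25 with it (adjusted p = 0.0543), where it called 0.514% and 0.426% of all bins.

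The bin of Zc3h12a with the smallest p was bin 6 (chr4:125122394-125122520, mm10, minus strand), noncoding sequence of 1 of 2 transcripts that lies in an intron of the other. It took 0.23, 0.649 and 0.331% of the gene's bin counts in unstimulated control libraries and 1.77, 2.78 and 0.932% with SF3a1 siRNA. Every SF3a1 siRNA library was above every control, by 2.24 on the log2 scale relative to the rest of the gene, but the bin did not pass over all bins (edgeR diffSpliceDGE, adjusted p = 0.413). With LPS it took 0.608 and 0.626% in control cells and 0.57, 0.75 and 0.921% with SF3a1 siRNA (0.27, adjusted p = 1). The bin had 159 counts over the 11 libraries. Without LPS the gene as a whole had 773, 265 and 262 counts in control libraries and 647, 380 and 271 with SF3a1 siRNA. The unstimulated shares of bin 6 thus rest on few reads.

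**Figure D5:**
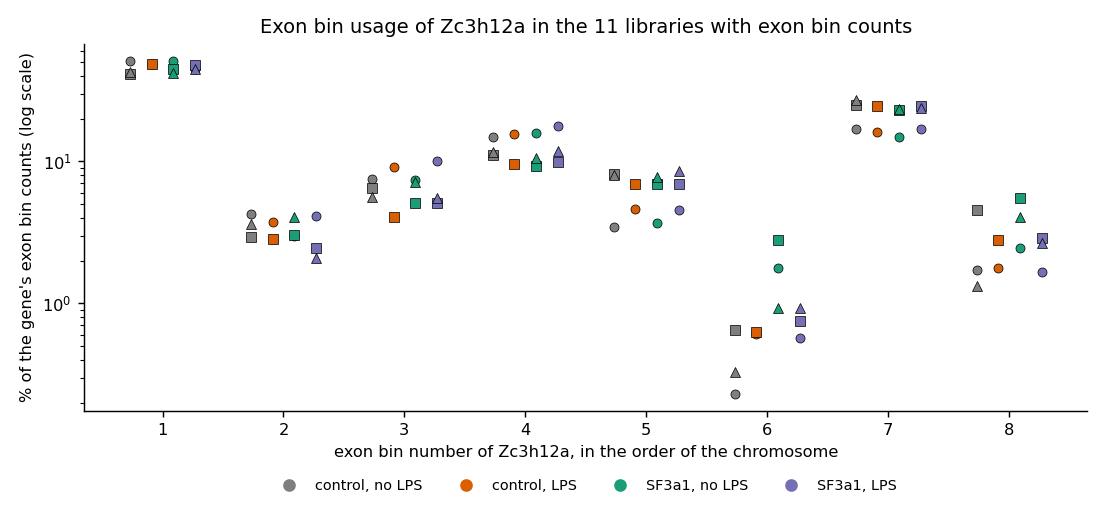
Share of the counts in exon bins of Zc3h12a (vertical axis, %, log scale) in each of its 8 bins, in chromosome order, for the 11 libraries with exon bin counts; colours are groups and point shapes replicate numbers. In bin 6 the 3 unstimulated SF3a1 siRNA libraries (0.932 to 2.78%) lie above the 3 unstimulated controls (0.23 to 0.649%), on few reads.

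Bin 25 of Rc3h1 (chr1:160967818-160974978, plus strand) is the last of the gene and noncoding. It held 13.9 and 21.4% of the gene's bin counts in LPS-stimulated control libraries and 22.0, 34.5 and 36.6% with SF3a1 siRNA (0.80 on the log2 scale, adjusted p = 0.908). In Tia1, which has 70 bins, bin 38 held 1.94, 0.676 and 1.45% in unstimulated control libraries and 0.197, 0.0881 and 0.817% with SF3a1 siRNA, where the groups overlapped (−2.01, adjusted p = 0.421). With the replicate number as a block this bin passed (−2.31, adjusted p = 0.0541), where 1.38% of all bins were called. The block also passed Khsrp bin 5 (1.10, adjusted p = 0.0234) and Tia1 bin 28 (−3.43, adjusted p = 0.0243) for SF3a1 siRNA with LPS. There it called 1.17% of all bins. Khsrp bin 5 held 2.21 and 1.51% in LPS-stimulated control libraries and 4.43, 2.92 and 3.07% with SF3a1 siRNA. Tia1 bin 28, with 69 counts over the 11 libraries, held 0.832 and 0.972% in those controls and 0, 0 and 0.446% with SF3a1 siRNA. Without replicate 1 of the unstimulated control, Tial1 bin 30 passed for LPS in control cells (2.20, adjusted p = 0.0253), where 0.0752% of all bins were called. Without replicate 3 of the LPS-stimulated SF3a1 siRNA group, Tia1 bin 28 passed for SF3a1 siRNA with LPS (adjusted p = 0.0362). There 0.293% of all bins were called, and the LPS-stimulated SF3a1 siRNA libraries left had no counts in the bin. These bins held between 69 and 6660 counts over the 11 libraries.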

How the data were processed

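RNA of RAW264.7 cells was sequenced as 12 single-end poly(A) libraries on an Ion Proton. The authors aligned reads to mm10 with GSNAP and deposited raw counts per Ensembl gene from HTSeq and raw counts per exon bin from the DEXSeq counting script. Reads in no gene made up 17.75 to 27.2% and ambiguous reads 0.431 to 0.53% of the deposited counts of a library, and both were left out. Counts were tested with edgeR 4.0.16 (R 4.3.3), with TMM scaling, filterByExpr and a quasi-likelihood test over all 12 libraries, 1 mean per group, which left 14983 genes. CPM values use TMM library sizes. P-values were adjusted by Benjamini-Hochberg and called at 0.1 or less. Exon bins (153624 tested) were tested with diffSpliceDGE. The scripts were tested on simulated data. Alternatives used RLE and upper quartile factors, other filters, DESeq2 1.42.0, limma 3.58.1, a replicate block and fits without each library.

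The members and the gene lists were chosen with earlier results of these data known, and lists come from general knowledge. From each list up to 4 called genes with the largest change and a mean of at least 10 CPM were eligible to be named; Tnf, Bcl2, Icos and Dis3l (with LPS) were named after their values were seen, as were the sequence motifs and the bins other than those with a gene's smallest p. In 18 same-numbered pairs of libraries from different groups, deviations from the group means correlated at 0.14 to 0.60 (median 0.36). In 36 differently numbered pairs the values were −0.52 to 0.35 (median −0.31), so the ranges overlapped. Replicate numbers were taken to pair the libraries, which is less sure for numbers 2 and 3. Replicate 3 of the unstimulated control gave 0.35 with replicate 2 of LPS-stimulated SF3a1 siRNA and 0.14 with its replicate 3. Replicate 2 of the unstimulated control gave 0.34 with replicate 2 of the LPS-stimulated control and 0.19 with its replicate 3. 3 libraries against 3 cannot go below an exact permutation p of 0.1, so no such test was used. No 2 replicates agreed within sampling noise. GENCODE vM21 and RefSeq tables gave names, sequences and bin positions, the last only where rebuilt bins matched the counted ones in number. No genome was used.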

Additional observations from a re-analysis of the deposited data

Results flagged for a closer look

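Zc3h12a was the 1 member for which the SF3a1 siRNA effects with and without LPS differed by a test of the difference itself in the edgeR fit with the filter on low counts, all 12 libraries and no replicate block. The SF3a1 siRNA effect with LPS minus that without it was −1.31 on the log2 scale (edgeR interaction term, adjusted p = 0.0273), from group means of 13.6 CPM (control) and 21.6 CPM (SF3a1 siRNA) without LPS and 171 and 110 CPM with it. In the fit blocked on replicate number, the difference also passed for Zfp36, at −1.74 (adjusted p = 0.000209), and for Zfp36l2, at 1.20 (adjusted p = 0.0834), and both also passed without a filter on low counts (−1.63 and 1.06, adjusted p = 0.000107 and 0.0284). Groups of 3 libraries were too small for the test of single outlying libraries.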

How the results depend on the processing

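Of 1476 values of single members and bins under the alternatives, 1358 kept their direction and their side of the threshold, 47 gained a call, 20 lost one and 51 (21 of genes and 30 of bins) changed sign, none of them called in either fit. With the replicate block, the calls over all genes were 3115 for LPS in SF3a1 siRNA cells (1598 without) and 1756 for the difference of effects (520 without), with 5 members called for SF3a1 siRNA with LPS (50.9% of all genes) and 3 for the difference (11.7%). Beyond the members and bins named with the results, the block changed no other member's call. Without a filter 5 members were called for SF3a1 siRNA with LPS, where 5445 of 28638 genes passed (19%), and 3 for the difference, where 930 genes passed (3.25%), and DESeq2 called 966 there. For LPS in SF3a1 siRNA cells 1 member was called by limma-voom (10% of all genes) and by the fit of only the groups compared (9.08%). Leaving out 1 library gave 1 to 2 members and 1050 to 2005 genes for LPS in SF3a1 siRNA cells, and 1 to 2 members and 273 to 711 genes for the difference. For exon bins, the block called 285 bins for LPS in control cells and 105 for LPS in SF3a1 siRNA cells. For SF3a1 siRNA without and with LPS it called 2113 and 1793 (1.38% and 1.17% of all bins), with 1 and 2 member bins. By limma-voom 1 member bin was called in each of these SF3a1 siRNA comparisons and 21 bins for LPS in SF3a1 siRNA cells. Leaving out 1 library gave 49 to 158 bins and 0 to 1 member bins for LPS in control cells, 527 to 1131 bins for SF3a1 siRNA without LPS, and 101 to 888 bins and 0 to 1 member bins for SF3a1 siRNA with LPS. A fit of only replicates 2 and 3, chosen after seeing the data because replicate 1 of each group was sequenced in 2 runs, called 7 members for SF3a1 siRNA without LPS (41.3% of all genes), 5 with LPS (45.1%) and 3 for the difference, where 1012 genes passed (6.82%). No scaling moved the median of all genes by over 0.1 on the log2 scale. Values that changed sign when 1 library was left out are given with their log2 range over those fits. Among genes they were, for LPS in control cells, Elavl1 (−0.048 to 0.043) and Zfp36l1 (−0.64 to 0.029), and for SF3a1 siRNA with LPS, Elavl1 (−0.044 to 0.077) and Tia1 (−0.18 to 0.092). For LPS in SF3a1 siRNA cells they were Zfp36l1 (−0.91 to 0.013) and Zfp36l2 (−0.15 to 0.092), and for the difference of effects Khsrp (−0.047 to 0.52) and Zfp36l1 (−0.48 to 0.44). Among bins they were, for LPS in control cells, Khsrp bin 5 (−0.65 to 0.19) and Zfp36l2 bin 2 (−0.038 to 0.0496). For SF3a1 siRNA without LPS they were Khsrp bin 5 (−0.78 to 0.46), Tial1 bin 5 (−0.12 to 0.70), Zfp36l1 bin 1 (−0.45 to 0.18) and Zfp36l2 bin 2 (−0.018 to 0.0645). With LPS they were Elavl1 bin 4 (−0.15 to 0.074), Zfp36 bin 2 (−0.10 to 0.028) and Zfp36l1 bin 1 (−0.0026 to 1.49). For LPS in SF3a1 siRNA cells they were Elavl1 bin 4 (−0.0798 to 0.15), Rc3h1 bin 25 (−0.097 to 0.29), Tia1 bin 38 (−2.74 to 0.90), Zfp36 bin 2 (−0.18 to 0.042) and Zfp36l1 bin 1 (−0.24 to 0.39). Other settings changed the sign for Elavl1 without a filter (−0.019, LPS in control cells), Tia1 in the fit of only the groups compared (0.011, SF3a1 siRNA with LPS), Zfp36 bin 2 with the block (0.024, SF3a1 siRNA with LPS) and Zfp36l1 with only replicates 2 and 3 (−0.68, the difference of effects). The cause of these differences was not tested.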
